A study of Mus musculus with 12 samples.

Results

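Genes of recruited monocytes and lipid-associated macrophages, 10 in number, were followed in mouse liver: Ly6c2, Ccr2, Cd68, Ctss, Itgax, Lgals3, Cd9, Trem2, Gpnmb and Lpl. They were chosen by gene symbol, and all 10 were found once each among the 50600 genes of the count files. Each of the 10 was also among the 15219 genes that passed the filter on low counts and were tested. Polyadenylated RNA was sequenced from liver in 12 libraries, in 3 groups of 4. All groups were of the strain Rosa26-LSL-dCas9-p300, in which a nuclease-dead Cas9 fused to the histone acetyltransferase p300 sits behind a stop cassette that Cre recombinase removes. One group received PBS and no virus. The others received an adeno-associated virus (AAV), labelled AAV.Cbh.gRNA, at 1e+12 viral genomes per mouse, carrying either a control guide RNA (gRNA) or a gRNA against Pdx1, a transcription factor gene of the pancreas. Injection was into the tail vein of animals about 8 weeks old, with livers harvested after 2 weeks. How Cre was supplied, and to which cells, is not given in the labels. Nor do the labels say whether each library was a separate mouse. The p-values therefore reflect only how these libraries varied, which may be technical.

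A liver holds resident macrophages, the Kupffer cells, and can take up monocytes from blood. Classical mouse monocytes carry Ly6C on their surface and leave the bone marrow and enter tissue through the chemokine receptor CCR2. In livers and fat tissue loaded with lipid, monocyte-derived macrophages can take on a lipid-associated state, in which TREM2, CD9, GPNMB, galectin-3 and lysosomal genes are high. In whole tissue, fewer cells of a type and less RNA per cell cannot be told apart.

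Libraries held 11824767 to 22008046 assigned counts. PBS libraries 2 and 3 stood apart from the other 10: they had 33 and 43 counts of Xist and 1024 and 828 counts of the Y-linked Ddx3y, against 10696 to 24067 counts of Xist and at most 3 of Ddx3y. The labels do not give sex. Libraries of this kind were in the PBS group only, so this difference is partly confounded with virus against PBS. Between them these libraries were the lowest PBS library for 9 of the 10 genes, so values without them are given below. Pdx1 itself had 26, 32, 54 and 256 counts in the Pdx1 gRNA libraries 1 to 4 and at most 2 in the other 8.

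Short stretches of sequence near the transcription starts are shown for examples from the 10 genes. Against PBS, Gpnmb and Lgals3 rose after both viruses. Ctss and Ly6c2 rose after the control gRNA virus and did not pass the test after the Pdx1 gRNA virus. Between the viruses none of these genes was called, so the examples are not shown to be 2 kinds of gene. Windows of 300 bases (250 before the RefSeq start, 50 from it, GRCm38.p6) were found for 9 of the 10 genes. Both strands were searched for the PU.1 core GAGGAAGT, the AP-1 site TGANTCA and the M-box TCANGTGA that MITF and TFE factors bind. PU.1 is the lineage factor of macrophages, AP-1 responds to activation, and MITF and TFE factors drive lysosomal genes. Each 30-base stretch reads 5′ to 3′ on the gene's strand, with the motif in capitals.
Gpnmb, AP-1, chr6:49036515-49036544, plus strand: ccaggggcaagTGACTCAtgagcacgagtt
Lgals3, M-box, chr14:47373625-47373654, plus strand: tgcggaaggctTCAGGTGAaggaattaggg
Ctss, PU.1 on the opposite strand, chr3:95526773-95526802, plus strand: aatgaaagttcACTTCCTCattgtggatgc
Ctss, M-box, chr3:95526793-95526822, plus strand: ttgtggatgctTCATGTGAcaagctccgat
Ly6c2, PU.1, chr15:75112061-75112090, minus strand: atgttggccctGAGGAAGTaagaaccaaaa
The PU.1 core was found in 2 of the 9 windows, Ctss and Ly6c2, and in 3.2% of all 32851 windows of that length. The AP-1 pattern was found in 4 of 9, Gpnmb, Itgax, Cd68 and Trem2, against 7.81% of all windows. In Trem2 the letters were TGAATCA, which is not the usual AP-1 site. The M-box pattern was found in 2 of 9, Ctss and Lgals3, against 4.18%. In Lgals3 the letters were TCAGGTGA, which is not the usual M-box. Both of these shares of all windows count any base at N. A match describes the letters and does not show that a factor binds.

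Of the 10 genes, 9 rose after the control gRNA virus against PBS (edgeR quasi-likelihood test, adjusted p under 0.05, which is what "rose", "fell" and "called" mean here). The exception was Trem2. Over all tested genes, 16.3% were called higher and 32.1% were called in either direction in this comparison. The median log2 fold change of the 10 genes was 1.71, against -0.01 over all tested genes. In 7 of the 10 the lowest control gRNA library lay above the highest PBS library, compared with 16.5% of tested genes. After the Pdx1 gRNA virus, 3 of the 10 rose against PBS (Gpnmb, Lgals3 and Cd9), with 11.7% of tested genes called higher and 22.1% called in either direction. Their median was 0.87, against -0.06 over all genes. Between the viruses none of the 10 was called, as was none of the tested genes (0.0%). All 10 were nonetheless lower with the Pdx1 gRNA, with a median of -0.91 and an unadjusted p under 0.05 for 6 of them. At that unadjusted threshold 3.8% of all tested genes were lower, and 50.9% of all genes had a log2 fold change below 0. With PBS libraries 2 and 3 left out, a setting chosen after the data were seen, 4 of the 10 rose after control gRNA (Cd9, Gpnmb, Lgals3 and Lpl) and 1 after Pdx1 gRNA (Gpnmb). In that setting 6.91% and 4.5% of 16170 tested genes were called higher. These comparisons share libraries and are not independent of each other. The shares of all tested genes in the full fit apply as well to the gene lists below, whose counts should be read beside them.

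**Figure D1:**
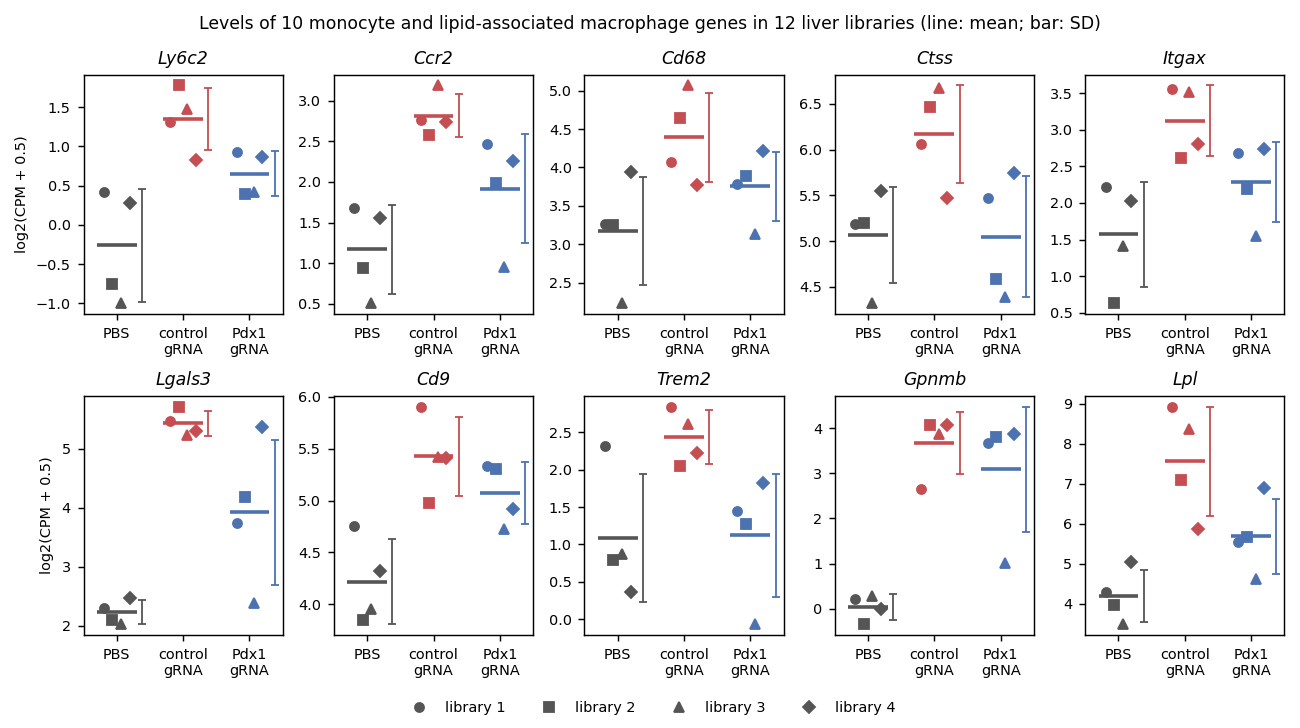
Level of each gene as log2(CPM + 0.5) in the 12 libraries, where CPM is the count scaled to the TMM-adjusted library size. Points are libraries, lines group means and bars the SD over 4 libraries, and each panel has its own vertical scale. All 4 control gRNA libraries lie above all 4 PBS libraries for 7 genes, and Pdx1 gRNA library 3 is the lowest of its group for 9.

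Monocyte genes come first. Ly6c2 (ENSMUSG00000022584.14, mm10 chr15:75108158-75111970, minus strand) encodes the Ly6C surface protein of classical monocytes. In PBS libraries 1 to 4 it had 0.839, 0.0950, 0 and 0.715 CPM, in control gRNA libraries 1.98, 2.92, 2.28 and 1.27 CPM, and in Pdx1 gRNA libraries 1.398, 0.811, 0.831 and 1.32 CPM. Every control gRNA library was above every PBS library, and the Pdx1 gRNA libraries lay between, overlapping both. The log2 fold change of control gRNA against PBS was 2.21 ± 0.62 (SE, adjusted p = 0.01647, edgeR), and that of Pdx1 gRNA against PBS was 1.28 ± 0.63 (adjusted p = 0.1639, edgeR). These values rest on few reads, with 0 to 14 counts in PBS libraries and 11 to 56 elsewhere. The library at 0 counts allows up to 0.307 CPM, taking 3 counts as the limit, for counting error only. Of the 50-base windows of its transcripts, 13.9% also occur in Ly6c1, a gene of endothelial cells. Reads from these windows may have been given to either gene or left out. Ly6c1 itself did not pass the filter and lay between 0.307 and 1.08 CPM in PBS libraries and between 0.224 and 0.910 CPM in control gRNA libraries, so these groups overlapped. With PBS libraries 2 and 3 left out, the log2 fold change of Ly6c2 after control gRNA was 1.41 and no longer called (adjusted p = 0.05615, edgeR).

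Ccr2 (ENSMUSG00000049103.14, chr9:124101950-124113557, plus strand) encodes the receptor for CCL2. Its CPM were 2.70, 1.43, 0.922 and 2.43 after PBS, 6.30, 5.48, 8.61 and 6.15 after control gRNA, and 5.02, 3.46, 1.44 and 4.27 after Pdx1 gRNA. The control gRNA libraries were above all others, and the Pdx1 gRNA libraries overlapped PBS through library 3. Ccr2 rose after control gRNA by a log2 of 1.80 ± 0.39 (SE, adjusted p = 0.005178, edgeR). After Pdx1 gRNA the log2 fold change was 0.90 ± 0.39 (adjusted p = 0.1181, edgeR), and without Pdx1 gRNA library 3 it was 1.16 and called. Ccr2 was 1 of 2 genes of the set, with Trem2, in which every Pdx1 gRNA library lay below every control gRNA library, compared with 3.17% of tested genes. Between the viruses its log2 fold change was -0.89 ± 0.38 (adjusted p = 0.8092, edgeR). Without PBS libraries 2 and 3 the rise after control gRNA was 1.35 and missed the threshold (adjusted p = 0.0594, edgeR).

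The CCR2 ligand gene Ccl2 had 0.782 ± 0.338 CPM after PBS (SD, n = 4), 3.06 ± 1.24 CPM after control gRNA and 1.06 ± 0.300 CPM after Pdx1 gRNA. It rose after control gRNA by a log2 of 1.93 ± 0.41 (adjusted p = 0.004617, edgeR). Its Pdx1 gRNA libraries all lay below its control gRNA libraries, with a log2 difference of -1.53 ± 0.40 that was not called (adjusted p = 0.8092, edgeR). Of 13 tested genes of monocyte recruitment, 5 rose after control gRNA and none fell, among them Ccl2, the chemokine receptor genes Ccr1 and Cx3cr1, and the adhesion gene Icam1. After Pdx1 gRNA Icam1 alone rose against PBS. Among 14 tested monocyte genes, 5 rose and none fell after control gRNA, among them Ms4a4c (log2 2.60 ± 0.43), Plac8 (1.50 ± 0.30) and the lipopolysaccharide co-receptor gene Cd14 (1.84 ± 0.51). Ms4a4c was the monocyte gene that also rose after Pdx1 gRNA, by 1.51 ± 0.44. Over all tested genes, 16.3% were called higher after control gRNA and 11.7% after Pdx1 gRNA. The counts of both lists after Pdx1 gRNA did not exceed that share.

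Genes of macrophage lysosomes followed. Cd68 (ENSMUSG00000018774.13, chr11:69664213-69666153, minus strand) encodes macrosialin, a glycoprotein of late endosomes and lysosomes. It had 9.11, 9.03, 4.20 and 14.8 CPM after PBS, 16.4, 24.6, 33.0 and 13.2 CPM after control gRNA, and 13.3, 14.3, 8.31 and 18.0 CPM after Pdx1 gRNA. Control gRNA library 4 was below PBS library 4, so the groups overlapped. The rise after control gRNA was 1.22 ± 0.37 on the log2 scale (adjusted p = 0.0237, edgeR), and the value after Pdx1 gRNA was 0.53 ± 0.37 (adjusted p = 0.3197, edgeR). Cd68 lost its call when any one of PBS library 2 or 3 or control gRNA library 2 or 3 was left out, with log2 values of 1.20, 0.98, 1.16 and 0.94. Without both PBS libraries the value was 0.84 (adjusted p = 0.1735, edgeR).

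Ctss (ENSMUSG00000038642.10, chr3:95526786-95556403, plus strand) encodes cathepsin S, a protease that processes the invariant chain for antigen presentation. Its CPM were 35.9, 36.1, 19.5 and 46.4 after PBS, 66.4, 88.0, 101.8 and 43.7 after control gRNA, and 43.9, 23.6, 20.5 and 52.9 after Pdx1 gRNA. Control gRNA libraries 1 to 3 were above every other library, while library 4 was within the PBS range. The rise after control gRNA was 1.12 ± 0.35 (log2, adjusted p = 0.02755, edgeR). After Pdx1 gRNA the value was 0.03 ± 0.35 (adjusted p = 0.9566, edgeR), and its sign turned in several settings. The log2 difference between the viruses was -1.09 ± 0.35, with an unadjusted p of 0.008168 and an adjusted p of 0.8092 (edgeR). Leaving out PBS library 2 or 3, or control gRNA library 2 or 3, ended the call after control gRNA, with values of 1.14, 0.92, 1.03 and 0.92. So did the fit with no filter on low counts, at 1.16 (adjusted p = 0.06245, edgeR). Without both PBS libraries it was 0.84 (adjusted p = 0.192, edgeR).

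Other lysosomal genes did not move together. Of 20 tested, 3 rose (compared with 16.3% of all tested genes) and 2 fell after control gRNA, with a median log2 of 0.27. Ctsl, which encodes cathepsin L, had the smallest p of these: it had 486 ± 136 CPM after PBS, 2093 ± 332 CPM after control gRNA and 2095 ± 739 CPM after Pdx1 gRNA (SD, n = 4). It rose by a log2 of 2.11 ± 0.29 in both comparisons with PBS. Ctsz, for cathepsin Z, rose by 0.80 ± 0.16 after control gRNA, and Ctsh, for cathepsin H, fell by 0.64 ± 0.19. Ctsl and several others are also expressed by hepatocytes. Of the transcription factor genes of the lysosome, Mitf and Tfeb had log2 values of 0.35 ± 0.20 and -0.25 ± 0.20 after control gRNA, and neither was called in any comparison. Tfe3 had 31.6 to 36.2 CPM after PBS, 37.0 to 42.6 CPM after control gRNA and 37.5 to 65.7 CPM after Pdx1 gRNA, so that both virus groups lay above PBS. Its log2 value was 0.25 ± 0.16 after control gRNA and not called (adjusted p = 0.2319, edgeR), and it rose after Pdx1 gRNA by 0.51 ± 0.16 (adjusted p = 0.03271, edgeR).

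Itgax (ENSMUSG00000030789.9, chr7:128129547-128150657, plus strand) encodes CD11c, an integrin of dendritic cells and of lipid-associated macrophages. It had 4.14, 1.04, 2.15 and 3.58 CPM after PBS, 11.3, 5.63, 10.96 and 6.48 CPM after control gRNA, and 5.90, 4.05, 2.42 and 6.15 CPM after Pdx1 gRNA. All control gRNA libraries were above all PBS libraries, and the Pdx1 gRNA libraries overlapped both groups. Itgax rose after control gRNA by 1.63 ± 0.41 (log2, adjusted p = 0.01084, edgeR), and the value after Pdx1 gRNA was 0.75 ± 0.41 (adjusted p = 0.2148, edgeR). With PBS libraries 2 and 3 left out, the first was 1.13 and not called (adjusted p = 0.09115, edgeR). Of its transcript windows 8.02% also occur in Itgad, which was listed at no more than 0.240 CPM in any library. Its partner gene Itgb2 was not called in any comparison. Among 11 tested dendritic cell genes, Cd209a alone rose after control gRNA and none after Pdx1 gRNA, against 16.3% and 11.7% of all tested genes. The summed level of that list was 24.7 to 53.5 CPM after PBS, 49.3 to 66.0 CPM after control gRNA and 28.4 to 52.6 CPM after Pdx1 gRNA. Its part in the level of Itgax was not tested.

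Lgals3 (ENSMUSG00000050335.16, chr14:47367751-47386160, plus strand) encodes galectin-3, a secreted lectin that binds galactosides and ruptured lysosomes. It had 4.44, 3.80, 3.59 and 5.08 CPM after PBS, 44.0, 52.0, 37.1 and 38.9 CPM after control gRNA, and 12.8, 17.6, 4.76 and 40.9 CPM after Pdx1 gRNA. The control gRNA libraries lay close together and far above PBS, while the Pdx1 gRNA libraries ran from the PBS range to the control gRNA range. The highest Pdx1 gRNA library was 8.59 times the lowest, against 1.42 times after PBS. Lgals3 rose by a log2 of 3.34 ± 0.49 after control gRNA (adjusted p = 0.0007086, edgeR) and by 2.17 ± 0.47 after Pdx1 gRNA (adjusted p = 0.008031, edgeR). Without Pdx1 gRNA library 4 the second was 1.45, still called, and by limma-voom it was 1.84 and not called (adjusted p = 0.05266). Without PBS libraries 2 and 3 the rises were 3.15 (adjusted p = 0.01917) and 2.01 (adjusted p = 0.08613, edgeR), so the second call was lost. None of the 5 other galectin genes tested was called in any comparison, and Lgals1 had a log2 of 0.57 ± 0.42 after control gRNA.

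Cd9 (ENSMUSG00000030342.8, chr6:125460266-125494791, minus strand) encodes a tetraspanin, a membrane organizer present on many cell types and used as a marker of lipid-associated macrophages. It had 26.5, 13.9, 15.0 and 19.5 CPM after PBS, 59.5, 30.9, 42.2 and 42.0 CPM after control gRNA, and 39.9, 39.0, 26.0 and 29.8 CPM after Pdx1 gRNA. The control gRNA libraries were all above PBS, and Pdx1 gRNA library 3 was just below PBS library 1. Cd9 rose by 1.22 ± 0.24 after control gRNA (log2, adjusted p = 0.003167, edgeR) and by 0.84 ± 0.24 after Pdx1 gRNA (adjusted p = 0.02593, edgeR). The second call was lost without PBS library 2 or 3 or Pdx1 gRNA library 1 or 2, with values of 0.73, 0.75, 0.75 and 0.77. Without both PBS libraries the first was 0.90 and still called (adjusted p = 0.04877, edgeR) and the second 0.54 and not called (adjusted p = 0.2107, edgeR). The antisense gene Gm26728 covers 10.7% of the exon bases of Cd9 and had 1 count in all 12 libraries. Counting did not use strand, so this count does not show whether reads of the overlap were left out of Cd9.

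Bile duct cells also express Cd9 and Lgals3. Of 7 tested cholangiocyte genes, 3 rose after control gRNA (Epcam, Muc1 and Sox9) and none after Pdx1 gRNA, and their summed level was 31.0 to 51.1 CPM after PBS, 41.5 to 106.5 CPM after control gRNA and 31.9 to 46.4 CPM after Pdx1 gRNA. Krt19, the keratin gene that defines these cells, was present at 2.15 ± 1.18 CPM after PBS and 2.92 ± 2.56 CPM after control gRNA (SD, n = 4) and was not called. The part of these cells in the levels of Cd9 and Lgals3 was not tested. Among other tetraspanin and beta2 integrin genes, Cd63 rose and Cd82 fell against PBS after either virus, and the other 9 tested were not called. Over all tested genes, 32.1% after control gRNA and 22.1% after Pdx1 gRNA were called in either direction.

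Trem2 (ENSMUSG00000023992.14, chr17:48346401-48354147, plus strand) encodes a receptor for lipids and lipoproteins that signals through the adaptor TYROBP. It had 4.50, 1.24, 1.33 and 0.787 CPM after PBS, 6.68, 3.65, 5.63 and 4.16 CPM after control gRNA, and 2.23, 1.92, 0.453 and 3.05 CPM after Pdx1 gRNA. PBS library 1 was as high as the control gRNA libraries, and the other PBS libraries were below all of them. The log2 fold change after control gRNA was 1.33 ± 0.55 (adjusted p = 0.08326, edgeR). Without PBS library 1 it was 2.18 and called, and by limma-voom on all 12 libraries it was 1.58 and called (adjusted p = 0.04077). After Pdx1 gRNA the value was -0.05 ± 0.56 (adjusted p = 0.9576, edgeR), and without PBS library 1 it was 0.81 and not called. Every Pdx1 gRNA library lay below every control gRNA library, with a log2 difference of -1.38 ± 0.55 (unadjusted p = 0.02643, adjusted p = 0.8092, edgeR).

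Of 13 tested genes of TREM2 signalling, 2 rose after control gRNA, near the share of 16.3% over all tested genes. They were Grn, which encodes the lysosomal protein progranulin (1.03 ± 0.22), and Ms4a6d (1.50 ± 0.40). Grn alone rose after Pdx1 gRNA, by 0.86 ± 0.22, where 11.7% of all tested genes were called higher. Tyrobp had 10.8 ± 5.37 CPM after PBS, 20.8 ± 9.44 CPM after control gRNA and 11.1 ± 4.23 CPM after Pdx1 gRNA (SD, n = 4). Its log2 values were 0.95 ± 0.39 (adjusted p = 0.08182, edgeR) and 0.05 ± 0.39 against PBS. The kinase gene Syk and the genes of the sheddases that release TREM2, Adam10 and Adam17, were not called.

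Gpnmb (ENSMUSG00000029816.10, chr6:49036546-49070929, plus strand) encodes a transmembrane glycoprotein of lysosomes and melanosomes that is a marker of lipid-laden macrophages. It had 0.659, 0.285, 0.717 and 0.501 CPM after PBS, 5.75, 16.3, 14.2 and 16.4 CPM after control gRNA, and 12.2, 13.6, 1.51 and 14.1 CPM after Pdx1 gRNA. All 8 virus libraries were above all PBS libraries, with 1 low library in each virus group. Gpnmb rose by a log2 of 4.57 ± 0.65 after control gRNA (adjusted p = 0.0005977, edgeR) and by 4.23 ± 0.65 after Pdx1 gRNA (adjusted p = 0.001225, edgeR). PBS libraries held 3 to 11 counts each, which limits the precision of both folds. It was the 1 gene of the 10 whose Pdx1 gRNA and PBS libraries did not overlap, compared with 12.7% of tested genes higher without overlap. Between the viruses its log2 difference was -0.34 ± 0.50 (adjusted p = 0.929, edgeR), and 0.018 without Pdx1 gRNA library 3. Without PBS libraries 2 and 3 both rises were still called, at 4.45 (adjusted p = 0.01472) and 4.13 (adjusted p = 0.02472, edgeR).

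Lpl (ENSMUSG00000015568.16, chr8:68880491-68907448, plus strand) encodes lipoprotein lipase, which frees fatty acids from circulating triglyceride and is made by adipocytes, muscle and macrophages and little by adult hepatocytes. It had 19.1, 15.1, 10.7 and 32.2 CPM after PBS, 486.7, 135.0, 328.3 and 58.1 CPM after control gRNA, and 46.2, 50.5, 24.2 and 118.4 CPM after Pdx1 gRNA. Control gRNA libraries 1 and 3 were the highest by far, and the control gRNA range of 8.38 times was the widest of that group among the 10 genes. The rise after control gRNA was 3.70 ± 0.68 (log2, adjusted p = 0.002357, edgeR). After Pdx1 gRNA it was 1.63 ± 0.63 and not called (adjusted p = 0.08522, edgeR), and 1.04 without library 4. It was past the threshold in 3 other settings: DESeq2 (1.62), the 8 compared libraries alone (1.66) and control gRNA library 4 left out (1.63). The difference between the viruses was -2.07 ± 0.63 (unadjusted p = 0.006553, adjusted p = 0.8092, edgeR). With PBS libraries 2 and 3 left out, the rise after control gRNA was 3.27 and still called (adjusted p = 0.04137, edgeR).

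Genes that act with lipoprotein lipase did not rise with it. Of 17 tested, none rose and 7 fell after control gRNA, and none rose and 4 fell after Pdx1 gRNA. Ppara, the gene of the fatty acid sensor of hepatocytes, fell from 181 ± 71.9 CPM after PBS to 27.9 ± 5.39 CPM after control gRNA and 41.9 ± 10.6 CPM after Pdx1 gRNA (SD, n = 4). Apoa5, whose product raises lipase activity, fell by 1.55 ± 0.23 and 0.95 ± 0.23 on the log2 scale, and Sel1l, needed for the enzyme to leave the endoplasmic reticulum, by 0.67 ± 0.16 and 0.51 ± 0.16. Gpihbp1, which carries the enzyme across capillaries, and its inhibitor gene Angptl4 were not called. Many of these genes are expressed by hepatocytes, of whose 12 marker genes 10 fell after control gRNA and 6 after Pdx1 gRNA. Hepatocyte markers summed to 105000 to 143600 CPM after PBS, 57900 to 78070 CPM after control gRNA and 55830 to 114300 CPM after Pdx1 gRNA. Fat tissue was looked for through 6 adipocyte genes: Lep had 0 counts in all libraries, Adipoq and Plin1 stayed at or below 0.180 CPM and Retn at or below 0.209 CPM. Plin4 and Cidec, which hepatocytes also express, passed the filter, and none of the list rose. The part of hepatocytes, macrophages or other cells in the level of Lpl was not tested.

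**Figure D2:**
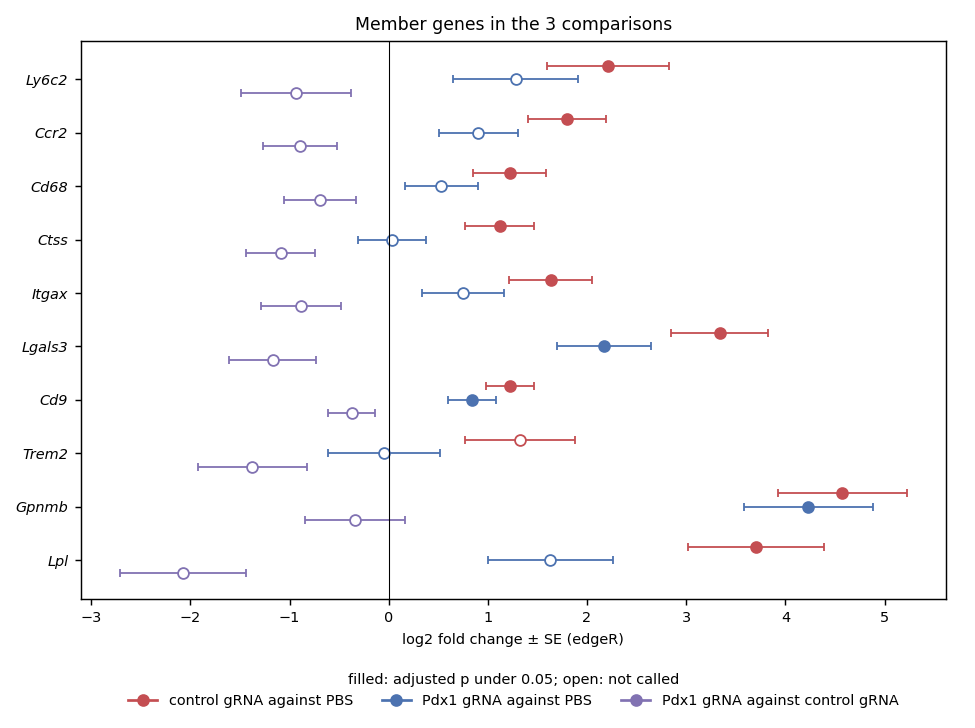
Log2 fold change with its SE from the edgeR fit for each gene in the 3 comparisons. Filled points are called and open points are not. Gpnmb is at 4.57 and 4.23 against PBS, while Ctss is at 1.12 and 0.03, and all 10 values of Pdx1 gRNA against control gRNA are open and below 0.

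Further genes of the lipid-associated state were read from a list of 22, all tested. After control gRNA 11 rose and none fell, with a median log2 of 0.63, and after Pdx1 gRNA 6 rose and none fell, with a median of 0.52. Cd63, a tetraspanin gene of late endosomes, went from 9.52 ± 2.21 CPM after PBS to 422 ± 200.5 CPM after control gRNA and 295 ± 213 CPM after Pdx1 gRNA (SD, n = 4). Its log2 fold changes were 5.46 ± 0.53 (adjusted p = 8.821e-05, edgeR) and 4.95 ± 0.51 (adjusted p = 0.0001309, edgeR). Cstb, for the protease inhibitor cystatin B, rose by 2.02 ± 0.23 and 1.61 ± 0.23. Mmp12, for macrophage elastase, was named after its values were seen: it had 0.187 ± 0.0597 CPM after PBS, 8.29 ± 6.35 CPM after control gRNA and 4.53 ± 3.60 CPM after Pdx1 gRNA (SD, n = 4), and it rose in both comparisons. Spp1, for osteopontin, rose after control gRNA (1.98 ± 0.63) and was not called after Pdx1 gRNA (0.70 ± 0.61). The lipid handling genes of the list were not called in any comparison: Fabp4, Fabp5, Apoe, Cd36 and Plin2. Cd63, Ctsl and Apoe are not restricted to macrophages.

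General macrophage genes served as a reference for the 10 genes. They did not move together: after control gRNA their log2 values ran from -0.90 for Adgre1 to 1.41 for Fcer1g. Their mean is therefore not a measure of macrophage RNA as a whole. Of 8 such genes, 3 rose after control gRNA (Fcer1g, Cyba and Aif1), with a median log2 of 0.74, and none was called after Pdx1 gRNA, with a median of -0.04. The defining genes Csf1r and Adgre1, which encode the CSF1 receptor and F4/80, had log2 values of -0.34 ± 0.40 and -0.90 ± 0.73 after control gRNA and were not called. Kupffer cell genes were not called either: 0 of 12 against PBS with either virus (edgeR), although 3 after control gRNA and 0 after Pdx1 gRNA had an unadjusted p under 0.05. Clec4f, which marks Kupffer cells, had 105 ± 51.2 CPM after PBS, 130 ± 81.5 CPM after control gRNA and 91.0 ± 38.5 CPM after Pdx1 gRNA (SD, n = 4). Timd4, which marks long-resident Kupffer cells, had log2 values of -0.55 ± 0.67 and -0.87 ± 0.68 against PBS.

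Each of the 10 genes was then expressed relative to the mean of these 8 genes in the same library, on the log2(CPM + 0.5) scale. Gpnmb, Lgals3 and Lpl were higher than in PBS libraries in every library of either virus group. After control gRNA the differences were 3.04 for Gpnmb, 2.61 for Lgals3 and 2.78 for Lpl, and after Pdx1 gRNA they were 3.21, 1.85 and 1.65. Over all tested genes, 1.16% and 4.11% lay above PBS without overlap on this scale. Each exact two-sided permutation test gave p = 0.02857, the smallest that 70 assignments of 4 and 4 libraries allow. After Benjamini-Hochberg adjustment over 30 tests it was 0.1429, so none passed. With that smallest p, a test could pass only if most of the 30 reached it, so the failure decides nothing. For the other 7 genes the groups overlapped in both comparisons, with differences of 0.52 to 1.06 for the control gRNA and 0.14 to 1.07 for the Pdx1 gRNA. Between the viruses none of the 10 separated, and Ctss had the smallest p (difference -0.38, exact permutation p = 0.05714, adjusted 0.1905). Without PBS library 1, 7 of the 10 separated from PBS after each virus, and without Pdx1 gRNA library 4, 5 did after Pdx1 gRNA. Of all tested genes, 2.9% after control gRNA and 8.37% after Pdx1 gRNA did so without PBS library 1, and 6.85% after Pdx1 gRNA without its library 4. Relative to the 12 Kupffer cell genes instead, Gpnmb, Lgals3 and Lpl separated after control gRNA, and 2 (Gpnmb and Lpl) after Pdx1 gRNA, where Lgals3 did not. The share of all tested genes that separated on that scale was not counted.

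**Figure D3:**
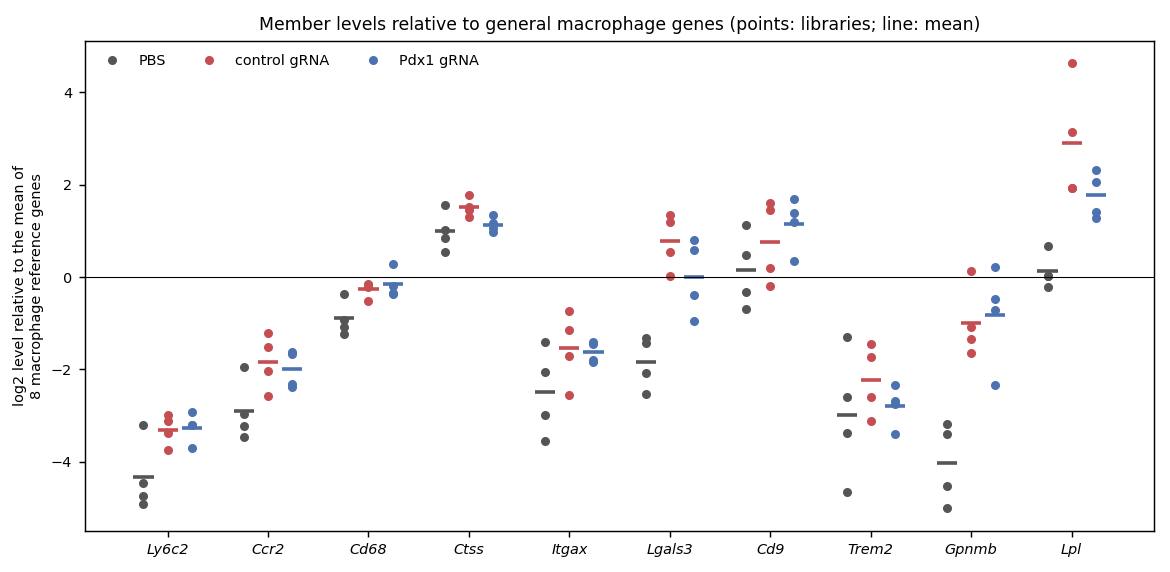
Level of each gene minus the mean of 8 general macrophage genes in the same library, on the log2(CPM + 0.5) scale. Points are libraries and lines are group means of 4. For Gpnmb, Lgals3 and Lpl all virus libraries lie above all PBS libraries, and for the other 7 genes they overlap.

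Per kilobase of exon, Ctss was the most abundant of the 10 genes in each group, at 25.4 ± 8.19, 55.2 ± 18.7 and 25.9 ± 11.6 CPM per kb (SD, n = 4) after PBS, control gRNA and Pdx1 gRNA. After PBS the order went on with Cd9 (9.15), Cd68 (7.39), Lgals3 (2.27), Lpl (1.84), Itgax (0.568), Trem2 (0.397), Ccr2 (0.277), Ly6c2 (0.151) and Gpnmb (0.083). Breaks where neighbours did not overlap came after Ctss, Cd68 and Lpl. After control gRNA, Lpl (24.1), Lgals3 (23.1), Cd9 (21.4) and Cd68 (17.3) followed Ctss with overlapping ranges. Gpnmb moved from the last place to the sixth in both virus groups, at 2.02 and 1.59 CPM per kb, and was separated from the gene above it in each.

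Pdx1 gRNA library 3 was the lowest of its group for 9 of the 10 genes, and library 4 the highest for 7. Library 4 had the most Pdx1 counts (256) and library 3 the second most (54), and the part of Pdx1 in these levels was not tested. Over the 12 libraries, the genes nearest each other in centred log2 CPM were Cd68 and Ctss, with a mean absolute difference of 0.27, and Ccr2 and Itgax, at 0.32. Gpnmb was the farthest from 8 of the other 9 genes. Outside the set, by the same measure, Sirpa was nearest to Cd68 (0.11, median over all tested genes 0.63) and Pld4 to Ctss (0.12). Oas1g was nearest to Ccr2 (0.18), Pafah1b3 to Cd9 (0.12) and Zc2hc1a to Itgax (0.16). The nearest genes were farther off for Lgals3 (Dnah1, 0.30), Ly6c2 (Efcab11, 0.35), Trem2 (Amz1, 0.38), Lpl (Igdcc4, 0.42) and Gpnmb (Abcc12, 0.49). Their medians over all tested genes were also larger, at 1.393, 1.012, 0.932, 1.365 and 1.958 in the same order. The larger distances, that of Gpnmb from the other genes included, therefore do not show a poorer match.

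**Figure D4:**
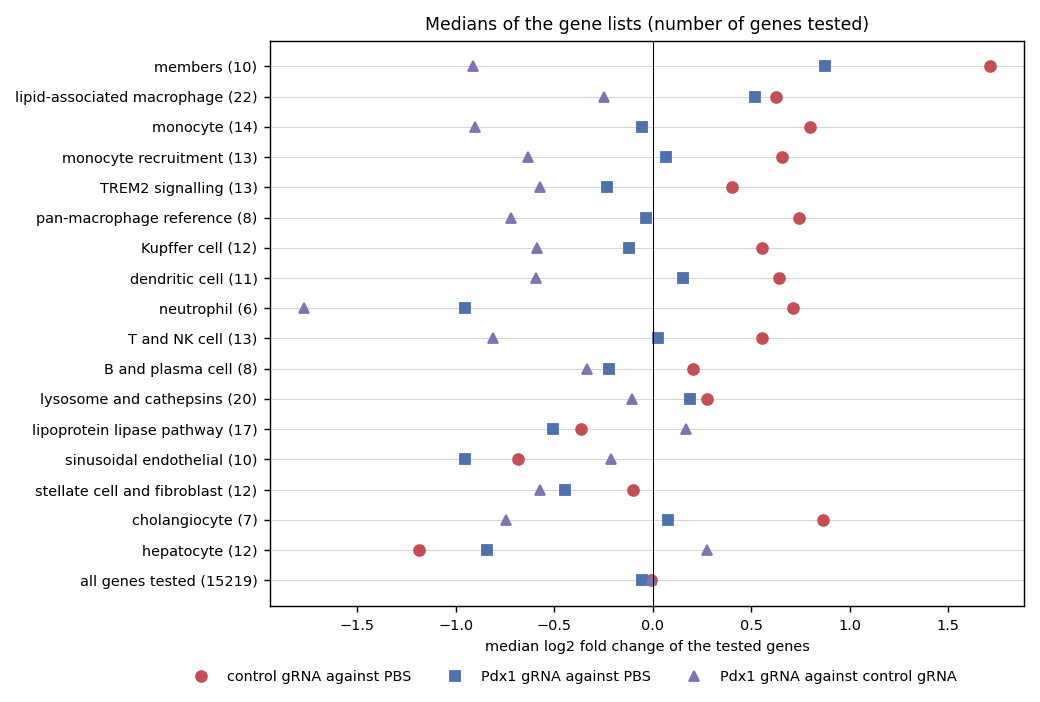
Median log2 fold change of the tested genes of each list in the 3 comparisons, with the number tested in parentheses. The 10 genes (top line) are at 1.71, 0.87 and -0.91, the general macrophage genes at 0.74, -0.04 and -0.72, and all tested genes near 0.

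Other immune cells could also hold these transcripts. For the counts that follow, 16.3% of all tested genes were called higher after control gRNA and 11.7% after Pdx1 gRNA. In either direction the shares were 32.1% and 22.1%. Neutrophil genes were not called in any comparison (0 of 6 tested, edgeR), although all 6 had an unadjusted p under 0.05 between the viruses, where their median log2 was -1.77. The list summed to 5.02 to 20.7 CPM after PBS, 13.5 to 20.8 CPM after control gRNA and 4.91 to 8.70 CPM after Pdx1 gRNA. T and NK cell genes had 2 of 13 called higher after control gRNA (Cd8a and Cd8b1, the CD8 chains) and none after Pdx1 gRNA, with medians of 0.56 and 0.03. Of 9 tested genes of a list drawn up for inflammatory macrophages, Tlr2, Cd14 and Cd80 rose after control gRNA. After Pdx1 gRNA Tlr2 rose. The list also held Mrc1, the mannose receptor gene, which is not a marker of inflammatory macrophages. It fell by 1.56 after Pdx1 gRNA. Mrc1 was singled out once its value was known. Sinusoidal endothelial genes fell in 2 of 10 tested after control gRNA and 4 of 10 after Pdx1 gRNA, Stab2 and Kdr among them each time. Of 12 stellate cell and fibroblast genes, Lum rose and Reln fell after control gRNA, and Rgs5 fell after Pdx1 gRNA. No B or plasma cell gene was called of 8 tested, and none had an unadjusted p under 0.05. Of 8 cell cycle genes, 8 rose after control gRNA and 6 after Pdx1 gRNA. The part of these cells in the levels of the 10 genes was not tested.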

How the data were processed

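The deposited values are counts per gene, 1 file per library, made by the authors with featureCounts 1.4.6-p4 on GENCODE M13, per the file headers, without use of strand. The submitters' processing notes also name STAR 2.4.1a and Trimmomatic 0.32, and the builds GRCm38 and mm10. Genes were filtered with filterByExpr (minimum count 10), scaled by TMM and fitted over all 12 libraries with edgeR 4.0.16 in R 4.3.3 (robust quasi-likelihood test, two-sided, group as the only term). Benjamini-Hochberg adjustment ran over 15219 genes. CPM are on TMM-scaled library sizes. Levels relative to 8 general macrophage genes used log2(CPM + 0.5) and exact permutation tests. Symbols came from a later GENCODE release by gene ID (50376 of 50600 matched). Named genes were the 10, their nearest patterns, the genes with the smallest p of each of 21 lists, and partners or type markers; list counts are descriptions without set tests. Some list genes are not reported here by name. The 10 genes and the lists were chosen with earlier results of these data known. The scripts were tested on simulated data. No library was a copy of another (lowest chi-square per degree of freedom 19.3, 66 pairs). Alternatives were other size factors (DESeq2, upper-quartile), no filter or at least 1 CPM in 4 libraries, DESeq2 1.42.0, limma-voom (limma 3.58.1), a non-robust fit, the 8 compared libraries alone, the replicate number as a block, and each library left out. Leaving out PBS libraries 2 and 3 was added after the data were seen.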

Additional observations from a re-analysis of the deposited data

Results flagged for a closer look

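Of 30 groups of 4 libraries (10 genes in 3 groups), 2 held a library far from the other 3, where chance alone flags about 1 in 20. Trem2 in PBS library 1 was 4.496 CPM, with the nearest PBS library at 1.332 CPM, a gap of 0.853 of the group's range. Without that library the log2 fold change of Trem2 after control gRNA was 2.18 and called. Gpnmb in Pdx1 gRNA library 3 was 1.511 CPM, with the nearest library at 12.22 CPM, also a gap of 0.853 of the range. That library was also the lowest of its group for 8 more of the 10 genes.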

How the results depend on the processing

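Of 660 log2 fold changes of the 10 genes under alternatives, 622 kept their direction and side of the threshold, 21 lost the call, 6 gained it and 11 changed sign. The total includes values between the viruses, where there was no call to lose. Among 22 alternatives each, Ctss lost its call after control gRNA in 6 and Cd68 in 5, and Cd9 lost its call after Pdx1 gRNA in 5. Gpnmb, Lgals3, Cd9 and Lpl stayed called after control gRNA in all 22 alternatives run. Without PBS libraries 2 and 3, the called genes of the 10 were 4 (Cd9, Gpnmb, Lgals3 and Lpl) after control gRNA and 1 (Gpnmb) after Pdx1 gRNA, and the called genes overall 2258 and 1277 in place of 4887 and 3368. Only 2 PBS libraries remain there. The log2 fold changes after control gRNA were also smaller there for each of the 10 genes, from 2.213 to 1.41 for Ly6c2 and from 4.572 to 4.454 for Gpnmb. The part of fewer samples in the lost calls was not tested. With 1 library left out, the 10 genes gave 7 to 10 calls after control gRNA, 2 to 4 after Pdx1 gRNA and 0 between the viruses, and all genes gave 3445 to 6875, 2132 to 5421 and 0 to 1. With the 8 compared libraries alone, 2017 genes were called for Pdx1 gRNA against PBS and 1 between the viruses, where DESeq2 called 14 and edgeR 0 (918 at an unadjusted p under 0.05). The cause was not tested.

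Changes of sign were all in values that were not called. Ctss, Pdx1 gRNA against PBS, was -0.022 by limma-voom, -0.16 without PBS library 3, -0.09 without Pdx1 gRNA library 1, -0.25 without library 4 (-0.25 to 0.22 over libraries left out) and -0.23 without PBS libraries 2 and 3. Trem2 in that comparison was 0.017 both without the filter and by limma-voom, 0.11 with the replicate block, 0.81 without PBS library 1 and 0.27 without Pdx1 gRNA library 3 (-0.38 to 0.81 over libraries left out). Gpnmb between the viruses was 0.018 without Pdx1 gRNA library 3 (-0.57 to 0.018). Upper-quartile factors moved the median of all genes after control gRNA from -0.01 to 0.10.

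Relative to general macrophage genes, 3, 3 and 0 of the 10 separated in the 3 comparisons, against 3 to 7, 3 to 7 and 0 to 1 with 1 library left out, and 1 between the viruses with a pseudocount of 2 CPM. No pairing by replicate number was seen, although these values cannot exclude one. Of same-numbered pairs, 3 of 12 correlated above 0.1 (-0.45 to 0.22), and 2 of 12 libraries correlated best with their own number. With the replicate block, 9, 3 and 0 of the 10 genes were called. Against PBS, 2239 and 1451 of 15219 tested genes were called higher there. Relative to macrophage genes, 8, 6 and 1 of the 10 had paired differences of one sign, where 4 pairs allow no p below 0.125. For relative levels, the share of all tested genes was not counted with the block, with the 2 CPM pseudocount or for most libraries left out. Those counts therefore describe the 10 genes only. Low counts limit Ly6c2 and Gpnmb in PBS libraries most.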
